A study of Homo sapiens with 6 samples.

Results

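Expression of 7 genes of mucus, 6 mucins and the mucin-folding protein AGR2, was followed in the human lung cancer cell line A549. They are 7 of the 58735 gene identifiers counted in each library. They were selected on their gene family and on earlier knowledge of their counts in these same libraries, so their differences between the groups are given below as a description, with no test. A549 cells given the compound B35 at 2 µM for 72 h (3 libraries) were set against untreated A549 cells kept for 72 h (3 libraries), all labelled wild type and grown in DMEM with serum. B35 is described by the submitters as inhibiting LSD1, the histone demethylase that KDM1A encodes. No solvent is named for the untreated cells, a single dose and time were used, and it is not stated whether replicates were grown as separate cultures, so errors and p-values cover the spread among 6 libraries that may be technical.

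Mucins are large glycoproteins whose central domains are rich in serine, threonine and proline and carry dense O-linked glycans. The gel-forming mucins MUC5AC and MUC5B are secreted, link through disulfide bonds into polymers and make up the mucus gel of the airway. MUC1, MUC13, MUC16 and MUC20 are membrane mucins, which stay anchored at the apical surface, where their extracellular parts can be shed and their short tails can take part in signalling. AGR2 is a protein of the endoplasmic reticulum related to the disulfide isomerases, needed in mice for the folding of intestinal mucin.

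Promoter sequences were listed for 4 of the 7 genes in RefSeq (GRCh38.p14), each covering 250 bases before and 50 bases after a transcript start. Those of MUC1, MUC13 and AGR2 are shown because these genes stood at 3 different levels here, with MUC1 the most abundant per exon length, MUC13 lower with B35 and AGR2 nearly without reads. All 3 lie on the minus strand and are written 5′ to 3′ in the direction of the gene, at chr1:155192866-155193165 for MUC1, chr3:124934702-124935001 for MUC13 and chr7:16804950-16805249 for AGR2. Capitals mark every match, on either strand, to the letters ACGTG (the core of the hypoxia response element), TGTTTAC (forkhead factors), TGANTCA (AP-1), CACCC (factors of the KLF and Sp type, read as GGGTG on the other strand) or TATAAA (the TATA box).
MUC1: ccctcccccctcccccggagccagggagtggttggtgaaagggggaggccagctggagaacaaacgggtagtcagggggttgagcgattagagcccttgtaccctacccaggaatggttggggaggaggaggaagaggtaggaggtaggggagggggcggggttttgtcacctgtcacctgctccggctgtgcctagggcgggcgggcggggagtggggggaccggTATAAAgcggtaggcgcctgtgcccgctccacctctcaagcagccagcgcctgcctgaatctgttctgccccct
MUC13: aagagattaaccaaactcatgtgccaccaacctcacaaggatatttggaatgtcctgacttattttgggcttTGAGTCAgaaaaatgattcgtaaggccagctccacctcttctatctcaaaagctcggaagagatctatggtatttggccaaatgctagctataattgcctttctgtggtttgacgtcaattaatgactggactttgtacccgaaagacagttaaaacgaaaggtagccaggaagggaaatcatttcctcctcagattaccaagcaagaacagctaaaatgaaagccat
AGR2: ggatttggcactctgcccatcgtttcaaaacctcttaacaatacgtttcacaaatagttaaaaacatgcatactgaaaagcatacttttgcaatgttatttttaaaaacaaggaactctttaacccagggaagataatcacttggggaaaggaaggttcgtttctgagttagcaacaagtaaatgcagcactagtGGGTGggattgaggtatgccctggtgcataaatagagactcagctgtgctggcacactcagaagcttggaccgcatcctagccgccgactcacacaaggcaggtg

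The MUC1 window held 1 TATAAA, at position −24 from the transcript start, a match found in 11.5% of the 35116 listed promoters. From another listed MUC1 start, whose window is not shown, the same TATAAA lies at position −30. The MUC13 window held 1 AP-1 match, at position −178, which 7.71% of listed promoters have, and had no TATAAA. The AGR2 window held 1 CACCC match on the opposite strand, at position −55, as do 59.9% of listed promoters in either direction. None of the 3 windows held ACGTG (in 21.4% of listed promoters) or TGTTTAC (in 3.42%). For MUC16 the listed starts lie 29067 and 84409 bases upstream of the gene as GENCODE release 29 has it, which supplied the gene models here, and those windows are not shown. The listed starts of MUC13 and AGR2 lie 19068 and 28434 bases inside the genes' spans in that release. The GC content of the shown windows was 65.7% for MUC1, 41% for MUC13 and 43.7% for AGR2.

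Library totals ran from 17209863 to 18530670 counts with B35 and from 17141478 to 18398450 counts in control cells. Levels are given as CPM, the count scaled to library size with TMM factors, and, where different genes are compared, as the deposited FPKM, which also divides by exon length. Of 14773 genes with enough counts to test, 2276 passed an adjusted p under 0.05 (edgeR quasi-likelihood test, Benjamini-Hochberg), 1303 higher and 973 lower with B35. When trends on GC and exon length were taken out of every library, 1652 were higher and 2459 lower. KDM1A averaged 184 ± 8.97 CPM with B35 and 198 ± 2.56 CPM in control cells (SD, n = 3 each, edgeR adjusted p = 0.432). All 7 epithelial markers had counts and summed to 2283 to 2741 CPM with B35 and 3070 to 3170 CPM in control cells. The difference lay mostly in KRT8, at 1117 ± 158.4 CPM with B35 and 1663 ± 34.9 CPM in control cells (SD, n = 3 each, log2 fold change −0.57 ± 0.108, edgeR adjusted p = 0.00611). EPCAM went the other way, at 7.21 ± 0.197 CPM with B35 and 3.36 ± 0.255 CPM in control cells (1.10 ± 0.169, edgeR adjusted p = 0.00248), and the other 4 tested epithelial markers did not pass. Nearly all of the epithelial sum was KRT8, KRT7 and KRT18, and KRT8 and KRT18 share exons. KRT19 had only 2 to 8 counts per library, too few to test, and CDH1 only 5 to 28 counts. Of 6 club cell markers 5 had no count in any library. The 8 goblet cell markers, of which CLCA1 had no count and only SPDEF had enough to test, summed to 4.75 to 6.80 CPM with B35 and to 2.50 to 4.26 CPM in control cells. Basal cell markers (6, KRT14 at 0) summed to 6.05 to 7.22 CPM with B35 and 2.34 to 3.43 CPM in control cells, ciliated cell markers (8, FOXJ1, TPPP3, SNTN and PIFO at 0) to 11.5 to 16.3 CPM with B35 and 7.38 to 11.3 CPM in control cells, and alveolar type 2 markers (8, SFTPA1, SFTPD and NAPSA at 0) to 104.8 to 113 CPM with B35 and 81.8 to 93.7 CPM in control cells. Nearly all of the alveolar sum was ABCA3, at 105.2 ± 4.45 CPM with B35 and 86.4 ± 6.24 CPM in control cells (SD, n = 3 each), which did not pass (edgeR adjusted p = 0.0627). The 5 endothelial markers (KDR at 0) summed to 7.38 to 9.60 CPM with B35 and 5.85 to 9.34 CPM in control cells. Markers of leukocytes (6, CD3E, LYZ and CD68 at 0) summed to 1.21 to 1.53 CPM with B35 and 1.25 to 1.55 CPM in control cells, and those of fibroblasts (6) to 19.8 to 22.8 CPM with B35 and 27.1 to 27.3 CPM in control cells. A single gene was also the greater part of the basal sum (KRT15, log2 fold change 1.155, edgeR adjusted p = 0.00923), the ciliated sum (TUBA1A, 0.60, edgeR adjusted p = 0.152), the endothelial sum (CDH5, 0.33, edgeR adjusted p = 0.267) and the fibroblast sum (COL1A1, −0.33, edgeR adjusted p = 0.0596). The part of these marker differences in the mucin values was not tested, and in bulk RNA fewer cells of a kind and less RNA per cell cannot be told apart.

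Of the 7 genes, 5 had enough counts to test. Of these 5, MUC5AC and MUC16 were past the threshold and higher with B35, MUC13 was past it and lower, and MUC5B and MUC1 were not past it. Across all tested genes 15.4% were past it, 8.82% higher and 6.59% lower with B35, and since the genes were picked with these values known, nothing is read from the count of 3. MUC20 and AGR2 had too few reads for the test.

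MUC5AC, the inducible gel-forming mucin of airway goblet cells (ENSG00000215182, chromosome 11, 1157953 to 1201138, plus strand, hg38), had 133, 74 and 110 counts in the B35 libraries, against 13, 43 and 20 counts in the control libraries. This is 7.52, 4.11 and 5.80 CPM with B35 and 0.725, 2.38 and 1.19 CPM in control cells. Every B35 library was above every control library. MUC5AC averaged 5.81 ± 1.71 CPM with B35 and 1.43 ± 0.854 CPM in control cells (SD, n = 3 each), a fitted log2 fold change of 2.01 ± 0.373 (SE), or 4.03-fold. The control libraries spread widely, and the exact 95% Poisson intervals of control replicate 2 (31.1 to 57.9 counts) and control replicate 1 (6.92 to 22.2 counts) did not overlap. Without control replicate 2 the log2 fold change was 2.595. No exon of MUC5AC is shared with another annotated gene, although reads in the tandem repeats of a mucin can align in more than 1 place, and the labels do not state how such reads were counted.

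MUC5B, the gel-forming mucin needed for airway clearance in mice (ENSG00000117983, chromosome 11, 1223066 to 1262172, plus strand), starts 21928 bases beyond the end of MUC5AC and was lower in reads. It had 17, 17 and 45 counts with B35 and 10, 13 and 13 counts in control cells, or 0.961, 0.944 and 2.37 CPM with B35 and 0.558, 0.720 and 0.773 CPM in control cells. The groups did not overlap, but the counts of B35 replicates 1 and 2 lay within the counting intervals of the control libraries, which reach 18.4 to 22.2 counts. B35 replicate 3 stood above the rest, with a counting interval of 32.8 to 60.2 counts. The log2 fold change was 1.06 ± 0.437 (SE) over all libraries and 0.48 without B35 replicate 3. An antisense gene, MUC5B-AS1, overlaps 2.33% of its exon length and had no count. Per library, MUC5AC exceeded MUC5B by 8.34, 4.64 and 2.61 times in FPKM with B35 and by 1.39, 3.53 and 1.64 times in control cells, and these ratios overlapped between the groups.

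**Figure D1:**
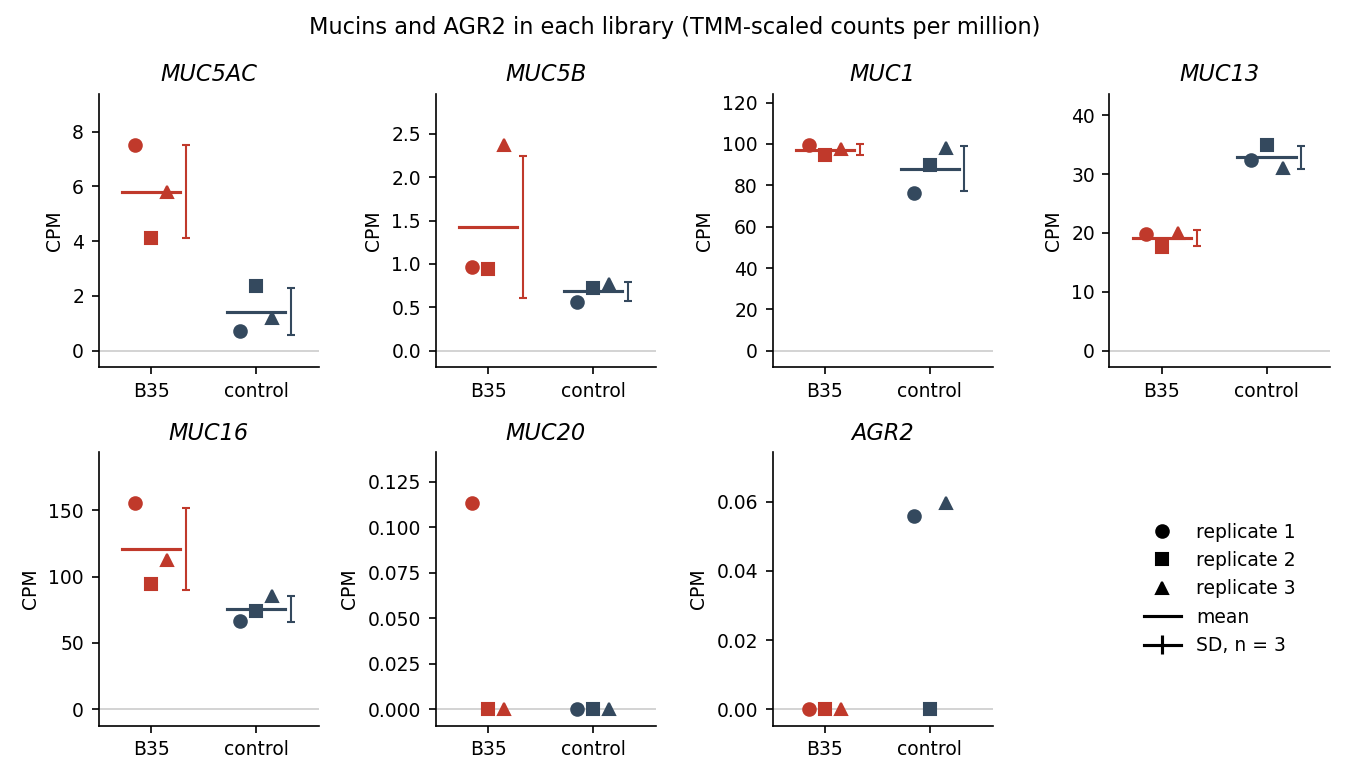
TMM-scaled CPM of each gene in each library, B35 on the left and control on the right of each panel. Symbols are replicates, horizontal lines are means and bars are SD (n = 3, not drawn for MUC20 and AGR2, which had at most 2 reads in a library). MUC5AC, MUC5B and MUC16 lay higher and MUC13 lower in every B35 library than in any control library, while MUC1 overlapped. How many of all tested genes separate in this way was not counted, so nothing is read from the number that did.

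MUC16, the long membrane mucin whose shed form is the tumour marker CA125 (ENSG00000181143, chromosome 19, 8848844 to 8981342, minus strand), had 155, 94.7 and 113 CPM in the B35 libraries and 66.8, 74.0 and 85.8 CPM in the control libraries. The groups did not overlap. B35 replicate 1 was well above the other B35 libraries, and the lowest B35 library was only a little above the highest control library. The mean was 121 ± 31.1 CPM with B35 and 75.5 ± 9.58 CPM in control cells (SD, n = 3 each), with a log2 fold change of 0.68 ± 0.166 (SE), or 1.60-fold. It was 0.46 without B35 replicate 1, the library that also had the most MUC5AC. MUC16 was not past the threshold without control replicate 1 (log2 fold change 0.59) or without control replicate 2 (0.66).

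MUC13, a membrane mucin of the gut with EGF-like domains (ENSG00000173702, chromosome 3, 124905442 to 124953819, minus strand), was the tested member that was lower with B35. Its level was 19.9, 17.7 and 20.0 CPM in the B35 libraries and 32.5, 34.9 and 31.0 CPM in the control libraries. The libraries of each group lay close together and the groups were far apart. The mean was 19.2 ± 1.32 CPM with B35 and 32.8 ± 1.97 CPM in control cells (SD, n = 3 each), which is 1.71-fold lower with B35 (log2 fold change −0.77 ± 0.110, SE). With any 1 library left out the log2 fold change stayed between −0.82 and −0.72.

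MUC1, a membrane mucin of most secretory epithelia that is overproduced in many carcinomas (ENSG00000185499, chromosome 1, 155185824 to 155192916, minus strand), had 99.5, 94.5 and 97.7 CPM in the B35 libraries and 76.4, 89.8 and 98.1 CPM in the control libraries. The groups overlapped, control replicate 3 being above 2 of the B35 libraries. The mean was 97.2 ± 2.56 CPM with B35 and 88.1 ± 10.9 CPM in control cells (SD, n = 3 each), with a log2 fold change of 0.14 ± 0.105 (SE). Its counts ran from 1371 to 1853 per library.

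**Figure D2:**
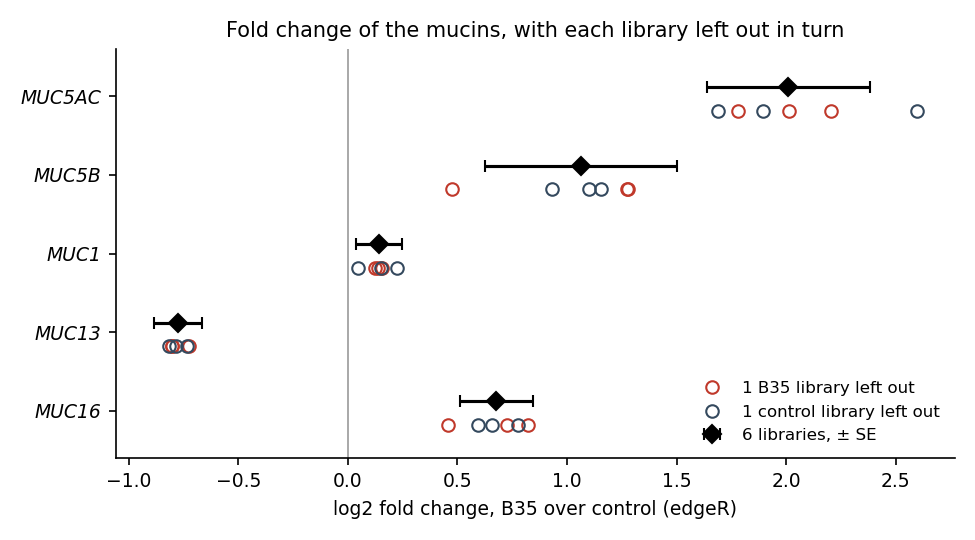
Log2 fold change of the 5 tested mucins, B35 over control, from the edgeR fit. Diamonds with bars are the fit to 6 libraries ± SE and open circles are fits with 1 library left out. MUC13 stayed within −0.82 to −0.72, MUC5AC ranged from 1.69 to 2.595 and MUC5B was at 0.48 without B35 replicate 3.

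MUC20 and AGR2 were at or near 0. MUC20, a membrane mucin known to bind the receptor MET (ENSG00000176945, chromosome 3, 195720882 to 195741123, plus strand), had 2 counts in B35 replicate 1, none in the other B35 libraries and none in the control libraries. A count of 0 allows up to 3 counts, or 0.162 to 0.175 CPM in these libraries, so the 2 reads are within what the control libraries also allow. The noncoding gene MUC20-OT1, on the same strand, shares 1820 bases of exon with MUC20, which is 42.8% of its exon length. MUC20-OT1 had 105, 105 and 125 counts with B35 and 113, 91 and 93 counts in control cells. The labels do not state how reads in the shared exons were assigned, so the MUC20 value is uncertain.

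AGR2 (ENSG00000106541, chromosome 7, 16791811 to 16833433, minus strand) had no count in the B35 libraries and 1, 0 and 1 counts in the control libraries. Both groups are within what a count of 0 allows, and no difference was detectable at this depth. No exon of AGR2 is shared with another gene. Its paralog AGR3, the next protein-coding gene on one side, had no count in any library. TSPAN13, the next gene on the other side, was at 49.97 ± 3.39 CPM with B35 and 45.5 ± 1.98 CPM in control cells (SD, n = 3 each).

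Per exon length the order of the genes was the same in both groups down to MUC5B. In deposited FPKM, MUC1 averaged 20.3 ± 0.455 with B35 and 18.6 ± 2.34 in control cells, MUC13 5.40 ± 0.339 with B35 and 9.33 ± 0.540 in control cells, and MUC16 2.71 ± 0.693 with B35 and 1.71 ± 0.222 in control cells (SD, n = 3 each). MUC5AC averaged 0.328 ± 0.0954 FPKM with B35 and 0.0817 ± 0.0486 FPKM in control cells, and MUC5B 0.0753 ± 0.0428 FPKM with B35 and 0.0366 ± 0.00607 FPKM in control cells (SD, n = 3 each). Neighbours in this order did not overlap in the B35 libraries, while MUC5AC and MUC5B overlapped in the control libraries. The mean of MUC1 over the 6 libraries exceeded that of 82% of tested genes, MUC13 that of 60.2% and MUC16 that of 32.9%. MUC5AC exceeded 3.63% of tested genes and MUC5B 0.190%.

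**Figure D3:**
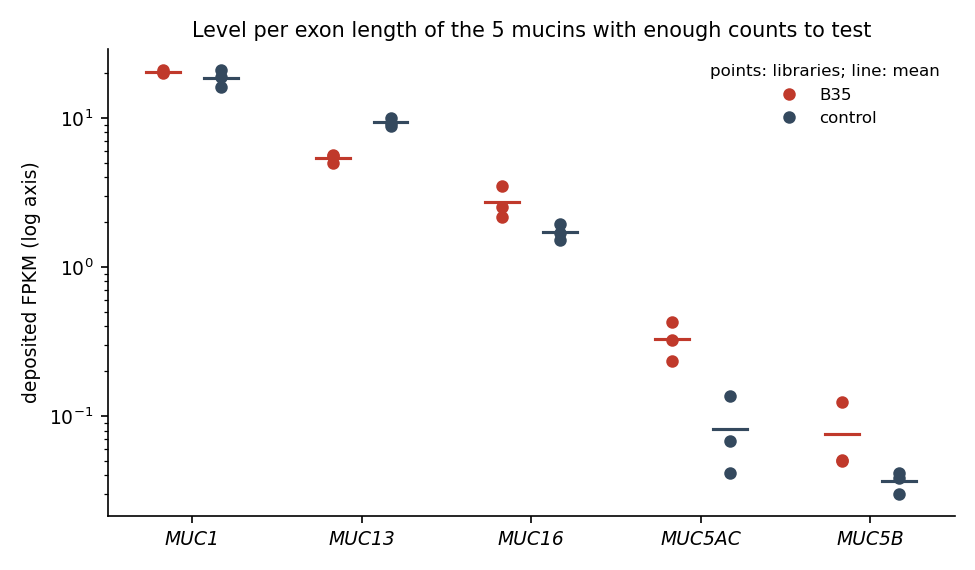
Deposited FPKM of the 5 tested mucins on a log axis, with a point for each library and a line for the group mean, B35 left of control for each gene. MUC1 was the most abundant in both groups, and MUC5AC and MUC5B lay below 0.5 FPKM in every library. MUC20 and AGR2, at or near 0, are not drawn.

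The sum of the gel-forming mucins was separated between the groups and that of the membrane mucins was not. The FPKM of MUC5AC and MUC5B together was 0.475, 0.284 and 0.450 in the B35 libraries and 0.0711, 0.174 and 0.110 in the control libraries. The groups did not overlap, and the B35 mean was 3.41 times the control mean. MUC5AC made up 81.3 ± 8.55% of this sum with B35 and 66.0 ± 10.5% in control cells (SD, n = 3 each), so the sum mostly follows that gene. The FPKM of the 4 membrane mucins together was 29.9, 27.0 and 28.4 in the B35 libraries and 26.9, 30.5 and 31.6 in the control libraries. These sums overlapped. Gel-forming mucins made up 1.39 ± 0.302% of all mucin FPKM with B35 and 0.392 ± 0.157% in control cells (SD, n = 3 each).

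Within the membrane class the shares of 3 mucins were separated between the groups. MUC13 made up 19.0 ± 0.63% of membrane mucin FPKM with B35 and 31.6 ± 3.24% in control cells (SD, n = 3 each). MUC16 made up 9.48 ± 1.94% with B35 and 5.78 ± 0.363% in control cells, and MUC1 71.5 ± 2.01% with B35 and 62.6 ± 2.93% in control cells. None of these 3 shares of FPKM overlapped between the groups. As parts of the same sum they do not move independently, since a lower share of one raises the others. The level of MUC1 itself overlapped between the groups, so nothing is read from the number of separated shares. The ratio of MUC16 to MUC13 was 0.623, 0.429 and 0.450 with B35 and 0.164, 0.169 and 0.221 in control cells. Counted as reads rather than per length, MUC16 made up 50.4 ± 5.50% of membrane mucin CPM with B35 and 38.4 ± 1.37% in control cells, since its exons span 43830 bases, against 4717 bases for MUC1 and 3499 bases for MUC13. On the CPM scale MUC13 made up 8.15 ± 0.791% with B35 and 16.8 ± 2.12% in control cells, without overlap, while MUC1 went the other way than in FPKM, with 41.5 ± 4.80% with B35 and 44.8 ± 1.129% in control cells, and overlapped.

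**Figure D4:**
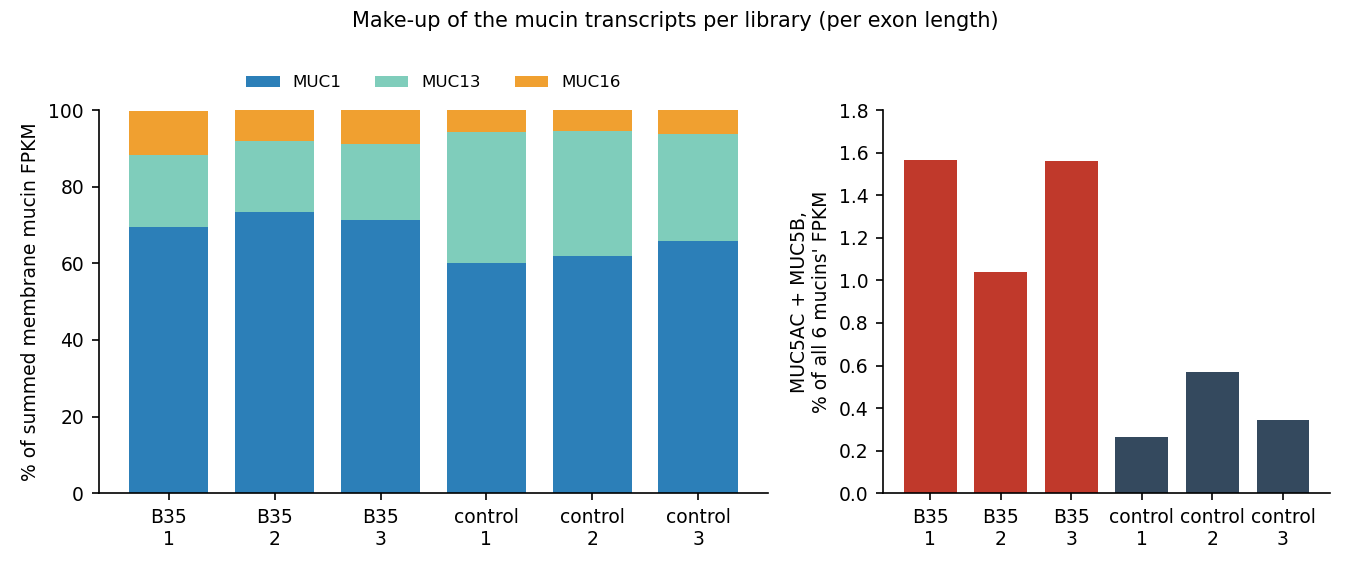
Left, share of MUC1, MUC13 and MUC16 in the summed FPKM of the membrane mucins in each library (MUC20, at most 2 reads, is not visible). Right, share of the gel-forming MUC5AC and MUC5B in the FPKM of all 6 mucins, with B35 libraries left of control libraries. The MUC13 share was below 20% in each B35 library and above 28% in each control library.

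Of 18 other mucins and sialomucins, 5 had enough counts to test, of which 1 was higher and 1 was lower with B35. A further 8 had too few counts to test, and 5 had no count in any library. Beside these counts and those of the lists below, 8.82% of all tested genes were higher and 6.59% lower with B35. As these lists too were chosen with earlier results of these data known, nothing is read from their counts. PODXL, the anti-adhesive sialomucin podocalyxin, rose to 1210 ± 96.3 CPM with B35, against 829 ± 108 CPM in control cells (SD, n = 3 each, log2 fold change 0.55 ± 0.111, edgeR adjusted p = 0.00899). MCAM, an adhesion molecule once named MUC18 in a gene that shares exons with CBL, was at 222 ± 20.9 CPM with B35 and 286 ± 32.8 CPM in control cells (log2 fold change −0.37 ± 0.110, edgeR adjusted p = 0.0451). Its call was lost without B35 replicate 2, control replicate 2 or control replicate 3 (edgeR adjusted p of 0.0979 to 0.171) and with upper-quartile scaling (0.0562). CD164 and OVGP1 did not pass (edgeR adjusted p = 0.429 and 0.739). MUC2, the intestinal gel-forming mucin next to MUC5AC, had 4, 6 and 11 counts with B35 and 7, 3 and 3 counts in control cells, too few to test. MUC4, next to MUC20, had 2 counts in B35 replicate 1 and none elsewhere.

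Enzymes that build O-glycans on mucins changed in single members. Of 15 tested enzymes of chain initiation and core formation 2 rose and 2 fell, beside 8.82% and 6.59% of all tested genes. Their median log2 fold change was 0.16, against 0.0067 over all tested genes. GALNT12, which adds the initial N-acetylgalactosamine, rose to 17.4 ± 2.11 CPM with B35, against 8.21 ± 1.53 CPM in control cells (SD, n = 3 each, log2 fold change 1.08 ± 0.162, edgeR adjusted p = 0.00218), and kept its call with each library left out. GALNT9 rose (log2 fold change 0.61 ± 0.176) and GALNT2 and GALNT1 fell (−0.44 ± 0.130 and −0.35 ± 0.104), with edgeR adjusted p of 0.0394, 0.0421 and 0.0463. The call of GALNT9 was lost without B35 replicate 2 or 3 or control replicate 1 or 3 (edgeR adjusted p of 0.073 to 0.17), that of GALNT2 without B35 replicate 2 or control replicate 2 or 3 (0.0916 to 0.154), and that of GALNT1 without any 1 library except B35 replicate 1 (0.0686 to 0.186). GALNT12, GALNT9 and GALNT2 share exons with other annotated genes. In this list 1 gene was past the threshold without B35 replicate 2 or control replicate 3, and 2 were without B35 replicate 3, control replicate 1 or control replicate 2.

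Of 20 tested enzymes that extend or cap glycans, not all of them particular to O-glycans, 2 rose and 1 fell. Their median log2 fold change was 0.11, and 8.82% of all tested genes rose and 6.59% fell. B3GNT3, which extends core O-glycans with N-acetylglucosamine, rose to 28.7 ± 2.83 CPM with B35, against 12.6 ± 1.72 CPM in control cells (SD, n = 3 each, log2 fold change 1.18 ± 0.135, edgeR adjusted p = 0.000536), and kept its call with each library left out. The sialyltransferase ST6GAL1 rose (log2 fold change 0.51 ± 0.133, edgeR adjusted p = 0.028) and ST3GAL4, also a sialyltransferase, fell (−0.32 ± 0.0895, edgeR adjusted p = 0.0356). The call of ST6GAL1 was lost without any 1 library except B35 replicate 1 (edgeR adjusted p of 0.0507 to 0.114), and that of ST3GAL4 without B35 replicate 3 or any 1 control library (0.0921 to 0.168). In this list 5 genes were past the threshold without B35 replicate 1 or without the low-count filter, 6 with GC and length trends removed, and 1 without control replicate 2 or 3.

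Of 14 tested relatives of AGR2 and other genes of protein folding in the endoplasmic reticulum, 2 rose, 2 fell and 10 did not pass. Their median log2 fold change was 0.11, and 8.82% of all tested genes rose and 6.59% fell. CREB3L4, a transcription factor of the endoplasmic reticulum membrane in a gene that shares exons with JTB and SLC39A1, rose (log2 fold change 0.63 ± 0.132, edgeR adjusted p = 0.00996). HSPA5, the chaperone BiP, fell to 630 ± 55.0 CPM with B35, against 837 ± 53.0 CPM in control cells (SD, n = 3 each, log2 fold change −0.41 ± 0.0959, edgeR adjusted p = 0.0164), and lost its call without control replicate 2 or 3 (0.0724 to 0.0879). The disulfide isomerase PDIA3, in a gene that shares exons with ELL3, fell (−0.33 ± 0.0877, edgeR adjusted p = 0.0308) and ERO1A, which reoxidises such isomerases, rose (0.37 ± 0.107, edgeR adjusted p = 0.0407). Their calls were lost without B35 replicate 3 or any 1 control library, and that of PDIA3 also without B35 replicate 2 (edgeR adjusted p of 0.0518 to 0.155 for PDIA3 and 0.0818 to 0.15 for ERO1A). In this list 2 genes were past the threshold without B35 replicate 3 or control replicate 1, and 1 without control replicate 2 or 3.

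Of 13 tested genes of mucus granules and co-secreted proteins 2 rose and none fell, beside 8.82% and 6.59% of all tested genes. Their median log2 fold change was 0.17. RAB3D, a GTPase of secretory granules in a gene that shares exons with CCDC159 and TMEM205, rose to 19.7 ± 0.376 CPM with B35, against 11.6 ± 0.433 CPM in control cells (SD, n = 3 each, log2 fold change 0.76 ± 0.115, edgeR adjusted p = 0.00224). MARCKS, which links mucin granules to the cytoskeleton during secretion, rose to 150 ± 11.7 CPM with B35, against 101 ± 2.27 CPM in control cells (log2 fold change 0.57 ± 0.0920, edgeR adjusted p = 0.00302). Both kept their calls with each library left out.

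Of 19 tested transcription factors of airway secretory cells 3 rose and none fell, beside 8.82% and 6.59% of all tested genes. Their median log2 fold change was 0.18. SOX9, a factor of lung bud tips and airway glands, rose to 7.01 ± 1.02 CPM with B35, against 2.66 ± 0.475 CPM in control cells (SD, n = 3 each, log2 fold change 1.40 ± 0.206, edgeR adjusted p = 0.00206). The epithelial ETS factor EHF rose (log2 fold change 1.07 ± 0.193, edgeR adjusted p = 0.00494) and so did HNF4A, a factor of gut and liver epithelium (0.59 ± 0.132, edgeR adjusted p = 0.0140), whose call was lost without control replicate 2 or 3 (0.0602 to 0.0736). SPDEF, the factor that drives goblet cell differentiation in mice, averaged 4.73 CPM with B35 and 3.03 CPM in control cells and did not pass (log2 fold change 0.64, edgeR adjusted p = 0.129). FOXA1 did not pass either (0.41, edgeR adjusted p = 0.0577). SPDEF and FOXA1 were named after their values were seen. The rises numbered 5 without B35 replicate 1.

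Of 21 tested EGFR and NOTCH ligands, cytokines, receptors and sheddases linked to mucin output 5 rose and none fell. Their median log2 fold change was 0.18, and 8.82% of all tested genes rose and 6.59% fell. The tested EGFR ligands TGFA, AREG and HBEGF did not pass (edgeR adjusted p = 0.296, 0.796 and 0.833), nor did EGFR (0.0558). IL1B and IL1A, cytokines that induce MUC5AC in airway epithelium, rose with log2 fold changes of 1.41 ± 0.160 and 1.504 ± 0.212 (edgeR adjusted p = 0.0005 and 0.00161). The receptor gene ERBB3 rose to 70.7 ± 2.44 CPM with B35, against 39.1 ± 4.68 CPM in control cells (SD, n = 3 each, log2 fold change 0.85 ± 0.108, edgeR adjusted p = 0.000877), and shares exons with another annotated gene. NOTCH3 rose to 28.8 ± 8.60 CPM with B35, against 11.5 ± 1.04 CPM in control cells (log2 fold change 1.33 ± 0.192, edgeR adjusted p = 0.00183). With GC and length trends removed 7 genes of this list rose and 2 fell.

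Of 16 tested partners and sheddases of membrane mucins 3 fell and 0 rose, beside 6.59% and 8.82% of all tested genes. Their median log2 fold change was −0.093. MMP7, matrilysin, fell to 8.78 ± 0.815 CPM with B35, against 13.8 ± 0.307 CPM in control cells (SD, n = 3 each, log2 fold change −0.66 ± 0.132, edgeR adjusted p = 0.00845). The scaffold PDZK1 fell (−0.91 ± 0.224, edgeR adjusted p = 0.0211), and so did MSN, or moesin, which ties membrane proteins to actin (−0.27 ± 0.0824, edgeR adjusted p = 0.0470). PDZK1 lost its call without B35 replicate 3 or control replicate 2 or 3 (edgeR adjusted p of 0.0672 to 0.0953), and MSN without any 1 library except B35 replicate 1 (0.0915 to 0.2), with upper-quartile scaling (0.0732) and without the low-count filter (0.0634). Without B35 replicate 1, 2 members of this list rose and 3 fell, with GC and length trends removed 1 rose and 5 fell, and without B35 replicate 3 or control replicate 2 or 3 only 1 fell.

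Over these lists together 17 of 122 tested genes rose and 9 fell, which is 21.3% past the threshold, beside 15.4% of all tested genes. The lists were chosen with earlier results of these data known, so nothing is read from this difference. The number past it was 16 without control replicate 2 and 14 without control replicate 3. The plot of list members shows each gene.

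**Figure D5:**
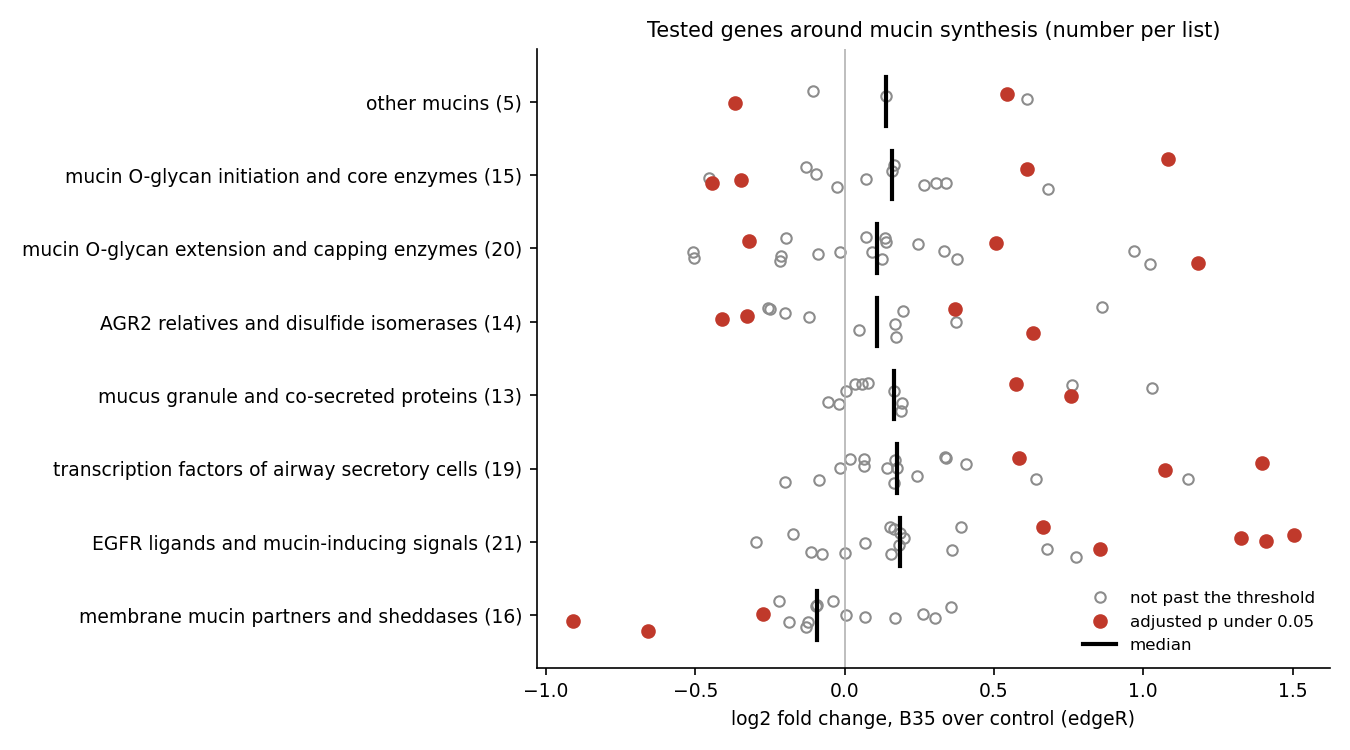
Log2 fold change, B35 over control, of the tested genes of each list, with the 7 genes described above left out. Filled points passed an edgeR adjusted p under 0.05, open points did not, and vertical bars are list medians. The medians lay between −0.093 and 0.18.

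Among the tested protein-coding neighbours that are not mucins, ITGB5 passed the test, while TOLLIP, TRIM46, THBS3, HEG1 and TSPAN13 did not. Of all tested genes 15.4% passed, so nothing is read from this single call. TOLLIP, on the far side of MUC5B, had a log2 fold change of 0.062 ± 0.120 (SE, edgeR adjusted p = 0.774). On either side of MUC1, TRIM46 was at 0.53 ± 0.236 and THBS3 at −0.011 ± 0.0989 (edgeR adjusted p = 0.158 and 0.955). Of the neighbours of MUC13, ITGB5, an integrin subunit 4024 bases away, was higher with B35 at 0.38 ± 0.101 (edgeR adjusted p = 0.0293), and HEG1 was at −0.063 ± 0.149 (0.822). The call of ITGB5 was lost without B35 replicate 2 or 3 or control replicate 1 or 3 (edgeR adjusted p of 0.0665 to 0.126). MBD3L1 and OR1M1, on either side of MUC16, had no count in any library.

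Genes with the most similar pattern were sought among 11973 protein-coding genes by the root mean square difference of log2 CPM over the 6 libraries, each gene centred on its own mean. These are descriptions over libraries that also differ by group, and the difference grows with the size of a gene's changes and with counting noise. MUC5AC had 13 to 133 counts per library and MUC1 1371 to 1853, so the values are not compared between members. The closest to MUC13 were WDR62 and DIO2, at 0.069 and 0.088. The closest to MUC16 were PTGS2 and GEM, at 0.067 and 0.074, and those to MUC1 were CHD8 and ELMSAN1, at 0.036 and 0.039. The closest to MUC5AC were SGPP2 and BDKRB2, at 0.321 and 0.359. For MUC5B they were TMEM171 and NEIL1, at 0.146 and 0.195, and TMEM171 also had its highest value in B35 replicate 3, with 3.28, 3.33 and 6.11 CPM with B35 and 2.01, 2.38 and 2.20 CPM in control cells. BDKRB2, NEIL1, CHD8 and DIO2 share exons with other annotated genes.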

How the data were processed

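Per the labels' protocols, TRIzol RNA went into libraries built with the NEBNext Ultra kit. The submitters' processing notes name HISAT2 2.0.5, featureCounts 1.5.0-p3 and the hg38 build. The strand setting, annotation and handling of multiply aligned reads are not given in the sources used here. For every gene identifier the authors deposited raw counts and FPKM. All 58735 identifiers matched GENCODE release 29 (primary assembly), which supplied symbols, coordinates and merged exons. For the members, deposited FPKM matched the count over merged exon length times a factor for each library.

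Counts were tested in R 4.3.3 with edgeR 4.0.16 (filterByExpr with minimum count 10 and total 15, TMM, quasi-likelihood test, two-sided, Benjamini-Hochberg over 14773 genes), all 6 libraries in 1 fit. A standard error is the log2 fold change over the square root of F. Members and lists were chosen with earlier results of these data known. Named genes are all 7 members, up to 4 genes per list past the threshold by adjusted p (or the 2 most abundant), other mucins at a mean CPM of 1 or more, each tested member's 2 closest profiles, nearest protein-coding neighbours and KDM1A. Alternatives were other scalings and filters, each library left out, the replicate number as a block, removal of GC and length trends by loess offsets, DESeq2 1.42.0, limma-voom (limma 3.58.1) and log2(FPKM + pseudocount). Poisson intervals and the floor of 3 counts cover counting error only. Python 3.11.15 (pandas 2.3.3, matplotlib 3.10.9) made the tables and figures.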

Additional observations from a re-analysis of the deposited data

How the results depend on the processing

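The directions of the 5 tested mucins held in every alternative run. The log2 fold change of MUC5AC was 1.24 on the log2(FPKM + 0.1) scale and 0.29 on log2(FPKM + 1), and that of MUC5B 0.33 and 0.052, because these pseudocounts are near or above their levels, and with 1 library left out they ranged from 1.69 to 2.595 and from 0.48 to 1.28. With GC and length trends removed MUC1 was at 0.040 and MUC16 at 0.54. The ratio of the gel-forming to the membrane sum, B35 over control, was 3.07 to 4.61 with 1 library left out and 2.83 with sums of CPM. It was 2.82 without MUC5AC and MUC1, the most abundant of each class. That leaves MUC5B alone, at 10 to 45 counts and not past the threshold, over MUC13, MUC16 and MUC20. The lower MUC13 level with B35 also raises this value, so it does not show a gel-forming rise apart from MUC5AC. Genes past the threshold numbered 4111 with GC and length trends removed and 881 to 3342 with 1 library left out, and the genes of the lists 14 to 34. The replicate block gave 2855 genes and ended the call of MSN (edgeR adjusted p = 0.0774). Libraries with the same number did not deviate together (correlations of 0.163, 0.0162 and −0.063 across genes), B35 replicate 3 being closest to control replicate 2, so the number was not treated as a pairing. Of 616 refits of 44 other named genes 553 kept their side of the threshold, 62 lost it, 1 gained it and none changed direction with a call. Depth limits MUC5AC, MUC5B, MUC20 and AGR2.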
